A study of Drosophila melanogaster with 30 samples.

Results

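The aminoacyl-tRNA synthetase genes were followed in wing imaginal discs of Drosophila melanogaster larvae that carry one of 3 forms of GAGA factor (GAF), the chromatin protein encoded by Trithorax-like (Trl). They were taken from the RNA-seq count table by name, as an amino acid abbreviation followed by RS, with an ending such as -m for the enzymes of the mitochondrion. Of 17868 genes in the table, 35 were members, 20 of them cytosolic and 15 mitochondrial. Of these, 33 matched the name pattern as spelled, and 2, alpha-PheRS and beta-PheRS, were included although their subunit letter stands in front. The name pattern used no measured value, although the members were chosen with earlier results of these data known. All 35 members passed the filter on low counts that left 10359 genes for testing.

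Of the 30 samples in the series, 9 were the RNA-seq libraries used here, and the remaining 14 contact maps and 7 CUT&Tag samples were not needed for these genes. The libraries came from 3 lines that are all described as Halo-tagged. In delta-POZ flies GAF lacked its POZ domain, through which GAF molecules associate with one another. In delta-Q flies it lacked the Q domain at the other end of the protein, and in Halo-Trl flies the tagged protein was full length. Each line gave 3 libraries, described as biological triplicates, and each library held the total RNA of 30 discs from wandering larvae of the third instar. The labels give neither the sex of the larvae nor how many independent lines stand behind a genotype, so a difference between genotypes cannot be told apart from a difference between lines in other parts of their genomes. All comparisons were made against the tagged full-length line or between the deletion lines, so an effect of the tag itself was not measured.

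An aminoacyl-tRNA synthetase joins an amino acid to its matching tRNA, the step that sets which amino acid a codon stands for. The enzymes fall into class I and class II, which have unrelated catalytic folds, and in animals a group of the cytosolic enzymes is held in a multisynthetase complex with the scaffold proteins AIMP1, AIMP2 and AIMP3. Mitochondria translate the few proteins of their own genome with a largely separate set of enzymes, made in the cytosol from nuclear genes and imported. The wing disc is a fast-growing epithelium in the larva, and its growth depends on a high rate of protein synthesis. In the count table the cytosolic set covered every amino acid, with GluProRS serving glutamate and proline in a single protein and phenylalanine served by an alpha and a beta subunit. For 5 amino acids (glutamine, glycine, histidine, lysine and threonine) the table held no -m gene. Cytosolic thus means a name without -m here, and the name does not show whether such a gene also serves the mitochondrion.

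The libraries held 57673928 to 85575887 reads in genes. Genes of the mitochondrial genome took 15.1% to 31.1% of them, with the lowest share in delta-Q library 1. No libraries were identical. Trl itself stood at 78.4, 67.7 and 61.0 CPM in delta-POZ discs and at 56.6, 60.3 and 64.0 CPM in delta-Q discs, against 51.3, 49.8 and 41.8 CPM in Halo-Trl discs (CPM are read counts scaled to a common library size, with edgeR's TMM factors). Counts over the whole gene do not show whether a domain was deleted. The summed level of 6 genes that mark the wing disc (nub, vg, sd, ap, salm and zfh2) lay at 2691 to 3383 CPM in delta-POZ, 2863 to 3611 CPM in delta-Q and 3036 to 3692 CPM in Halo-Trl libraries, and none of the 6 passed the test in any comparison. Other cell types differed more between libraries. The sum of 4 fat body markers ran at 12.5 to 40.7 CPM in delta-POZ, 371 to 4427 CPM in delta-Q and 7.74 to 2731 CPM in Halo-Trl libraries. The sum of 5 blood cell markers was 145 to 580 CPM in delta-POZ, 216 to 684 CPM in delta-Q and 112 to 279 CPM in Halo-Trl libraries, and that of 2 neuronal markers was 3.72 to 195 CPM in delta-POZ, 4.68 to 10.4 CPM in delta-Q and 51.4 to 74.1 CPM in Halo-Trl libraries. The 2 neuronal markers did not go together. In Halo-Trl libraries elav had 51.1, 74.0 and 66.9 CPM, but nSyb had 0.241, 0.104 and 0.830 CPM. In delta-Q libraries nSyb was about as low, at 0.233, 0.453 and 1.18 CPM. No marker was at 0 in all libraries of a genotype.

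**Figure D1:**
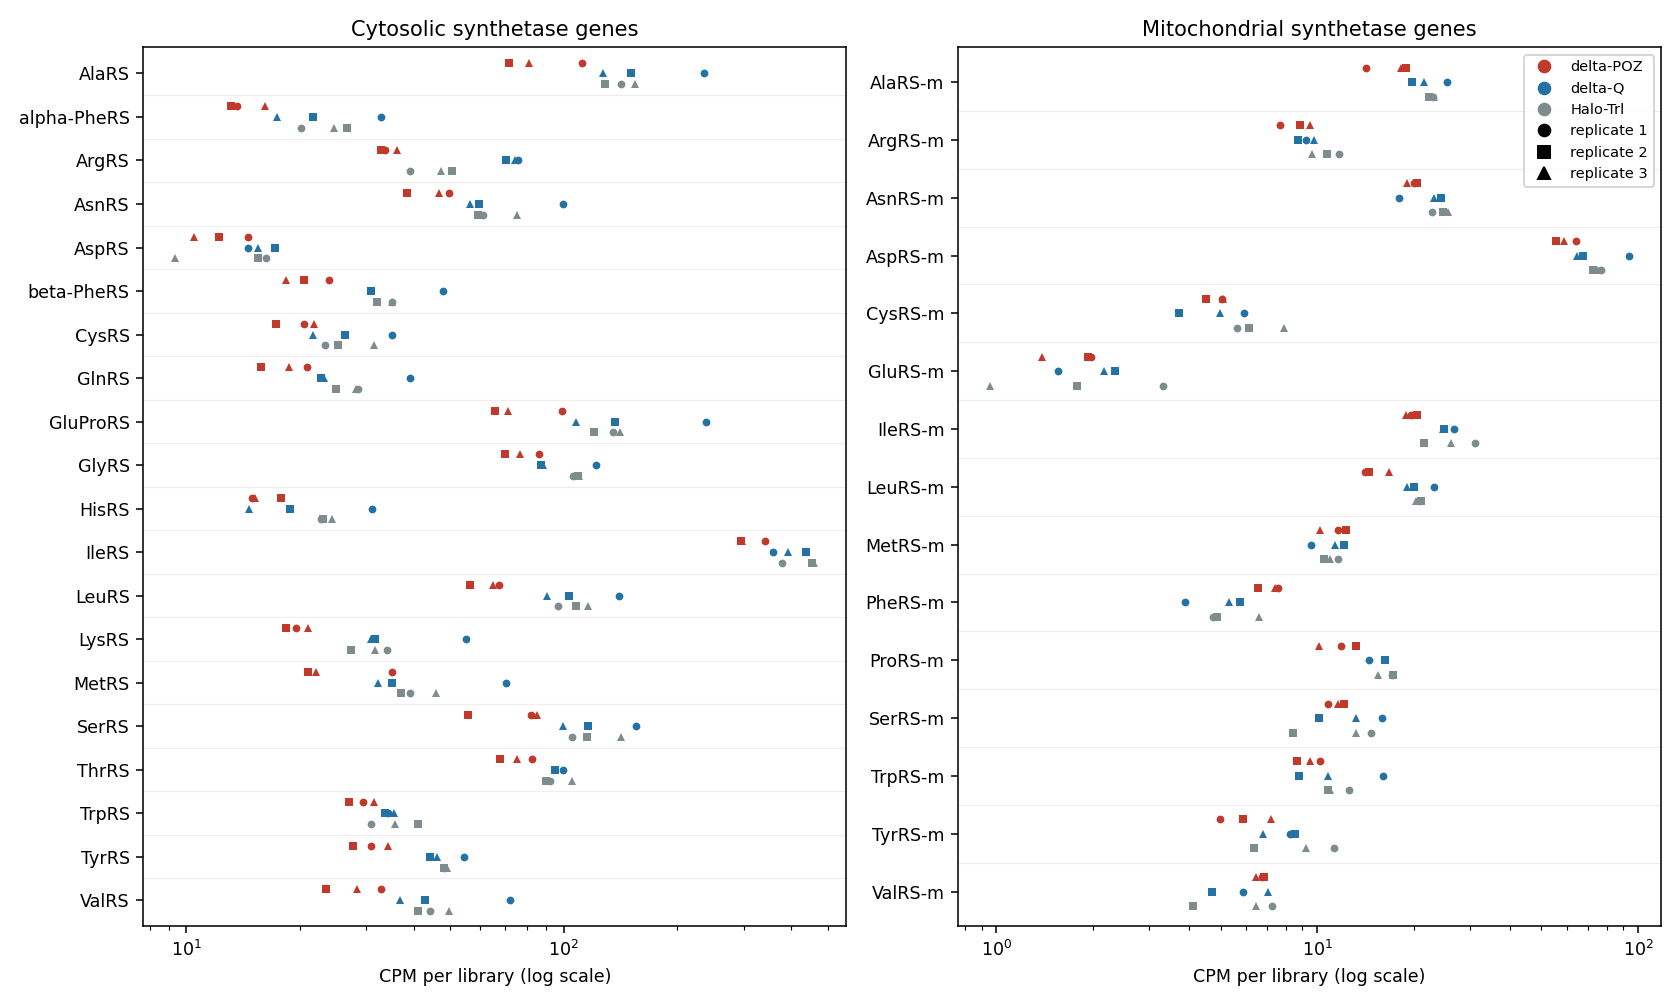
Level of each of the 35 synthetase genes in each wing disc library, in CPM on a log axis, with the cytosolic genes on the left and the mitochondrial genes on the right. Each row of a gene is a genotype (delta-POZ at the top, delta-Q below it, Halo-Trl at the bottom) and each symbol is a library. In 18 of 20 cytosolic genes every delta-POZ library lies left of every Halo-Trl library, and delta-Q library 1 (blue circle) is the rightmost point in 16 of 20.

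To ask whether loss of the POZ domain was accompanied by a change in the charging enzymes, delta-POZ discs were compared with Halo-Trl discs. The transcripts of 5 cytosolic synthetase genes, TyrRS, LeuRS, IleRS, beta-PheRS and ArgRS, were lower in delta-POZ discs (edgeR quasi-likelihood test over all 10359 genes, Benjamini-Hochberg adjusted p under 0.05). These were 5 of 20 cytosolic genes, beside 5.20% of all genes called lower, and none was called higher, beside 4.93% of all genes. All 20 had a log2 fold change below 0, as did 50.5% of all genes. Their median log2 fold change was -0.60, with a range of -0.76 in LeuRS to -0.14 in AspRS, while the median of all genes was -0.01. In 18 of the 20 the 3 delta-POZ libraries lay below all 3 Halo-Trl libraries, a separation found in 16.9% of all genes, and in none of the 20 did they lie above, as they did in 16.2% of all genes; AspRS and TrpRS were the genes that overlapped. At an unadjusted p under 0.05 stood 17 of 20 cytosolic genes and 2694 of the 10359 genes. In bulk discs, fewer cells that express a gene and less RNA of it per cell cannot be told apart.

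The number of calls varied with single libraries. The number of cytosolic genes called lower was 3, 2 and 2 without delta-POZ libraries 1, 2 and 3, and 4, 1 and 1 without Halo-Trl libraries 1, 2 and 3. Over all genes the number called lower fell as well. It went from 539 to 341, 344 and 330 without delta-POZ libraries 1, 2 and 3, and to 416, 260 and 221 without Halo-Trl libraries 1, 2 and 3. Leaving delta-Q library 1 out of the shared estimate of the spread, a setting chosen after the data were seen, gave 15 cytosolic genes called lower beside 6.05% of all genes. Across these 7 settings the median cytosolic log2 fold change stayed between -0.66 and -0.52.

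Among the class I enzymes, TyrRS was called with the smallest p. It charges tyrosine, and dominant mutations of its human counterpart cause a form of Charcot-Marie-Tooth neuropathy that has been modelled in flies. TyrRS had 30.9, 27.7 and 34.2 CPM in delta-POZ libraries, against 48.3, 48.3 and 49.2 CPM in Halo-Trl libraries. The Halo-Trl libraries were nearly level and the highest delta-POZ library lay well under them. TyrRS fell by 36.3% (log2 fold change -0.65, SE 0.12, adjusted p = 0.00807), and it was called in all 15 alternative settings tried for this comparison. LeuRS, the leucine enzyme and a member of the multisynthetase complex, stood at 67.4, 56.6 and 65.0 CPM in delta-POZ libraries, against 96.8, 108 and 116 CPM in Halo-Trl libraries. It fell by 41.0% (log2 -0.76, SE 0.16, adjusted p = 0.0150), the largest difference of the 20 genes; the adjusted p was 0.0572 without Halo-Trl library 2 and 0.0704 without Halo-Trl library 3.

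IleRS, which charges isoleucine, gave 341, 295 and 297 CPM in delta-POZ libraries, against 378, 454 and 461 CPM in Halo-Trl libraries. The gap between the highest delta-POZ and the lowest Halo-Trl library was narrow, and IleRS fell by 27.8% (log2 -0.47, SE 0.12, adjusted p = 0.0369). That call was lost without delta-POZ library 2 or 3 (adjusted p = 0.136 and 0.117) and without Halo-Trl library 2 or 3 (0.129 and 0.146). It was also lost with the replicate number as a block (0.0638), with upper-quartile factors (0.0564) and with no filter on low counts (0.0553). ArgRS, the arginine enzyme, had 33.7, 32.8 and 36.2 CPM in delta-POZ libraries, against 39.1, 50.5 and 47.2 CPM in Halo-Trl libraries. It fell by 24.8% (log2 -0.41, SE 0.11, adjusted p = 0.0454), close to the threshold: the call was lost in 11 of 15 alternative settings, among them the omission of delta-POZ library 1, 2 or 3 (adjusted p = 0.112, 0.135 and 0.0781) and of Halo-Trl library 2 or 3 (0.173 and 0.159).

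The remaining class I genes did not pass the test, although the genotypes were separated in all but TrpRS. ValRS, for valine, averaged 28.2 ± 4.71 CPM in delta-POZ discs and 44.9 ± 4.37 CPM in Halo-Trl discs (SD, n = 3 libraries each, here and below; log2 -0.67, adjusted p = 0.101). MetRS, whose enzyme charges the tRNA that starts every cytosolic protein, averaged 26.0 ± 7.80 CPM in delta-POZ discs and 40.7 ± 4.63 CPM in Halo-Trl discs (log2 -0.64, adjusted p = 0.211). Its delta-POZ libraries spread widely, at 35.0, 21.0 and 22.0 CPM, and only a small gap parted the highest of them from the Halo-Trl libraries. GlnRS, for glutamine, had 18.5 ± 2.52 CPM in delta-POZ discs and 27.2 ± 1.92 CPM in Halo-Trl discs (log2 -0.56, adjusted p = 0.128). CysRS, for cysteine, had 19.9 ± 2.31 CPM in delta-POZ discs and 26.7 ± 4.30 CPM in Halo-Trl discs (log2 -0.42, adjusted p = 0.202). TrpRS, for tryptophan, showed the smallest difference of the class, 29.3 ± 2.23 CPM in delta-POZ discs and 35.9 ± 5.07 CPM in Halo-Trl discs (log2 -0.29, adjusted p = 0.175). In all, 4 of 9 class I genes were called lower, beside 5.20% of all genes, with a median log2 fold change of -0.56.

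In class II, beta-PheRS was the gene called, the subunit that with alpha-PheRS forms the cytosolic phenylalanine enzyme. It had 23.9, 20.5 and 18.4 CPM in delta-POZ libraries, against 35.1, 32.0 and 35.0 CPM in Halo-Trl libraries. The genotypes were far apart relative to their spread, and beta-PheRS fell by 38.4% (log2 -0.70, SE 0.18, adjusted p = 0.0387). Leaving out any of the 6 libraries ended the call, with adjusted p of 0.0504, 0.0834 and 0.122 without delta-POZ libraries 1, 2 and 3 and of 0.0906, 0.0903 and 0.126 without Halo-Trl libraries 1, 2 and 3. Its partner alpha-PheRS differed by a like amount with a larger spread, at 13.6, 13.1 and 16.2 CPM in delta-POZ libraries against 20.1, 26.7 and 24.7 CPM in Halo-Trl libraries (log2 -0.74, SE 0.23, adjusted p = 0.0684).

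The other class II genes stayed above the threshold. GlyRS, whose human counterpart is also mutated in Charcot-Marie-Tooth neuropathy, averaged 77.5 ± 8.01 CPM in delta-POZ discs and 109 ± 2.16 CPM in Halo-Trl discs (log2 -0.49, adjusted p = 0.0546). SerRS, for serine, averaged 74.1 ± 16.1 CPM in delta-POZ discs and 121 ± 19.0 CPM in Halo-Trl discs (log2 -0.71, adjusted p = 0.0553). ThrRS, for threonine, had 75.0 ± 7.42 CPM in delta-POZ discs and 95.3 ± 8.12 CPM in Halo-Trl discs (log2 -0.35, adjusted p = 0.0641). Each of these came close to the threshold with separated libraries. LysRS, the lysine enzyme of the multisynthetase complex, had 19.6 ± 1.32 CPM in delta-POZ discs and 31.1 ± 3.43 CPM in Halo-Trl discs (log2 -0.66, adjusted p = 0.0823). AlaRS, an enzyme known for its own editing of mischarged tRNA, had 88.2 ± 21.1 CPM in delta-POZ discs and 141 ± 12.3 CPM in Halo-Trl discs (log2 -0.68, adjusted p = 0.0939). AsnRS, for asparagine, and HisRS, for histidine, had the same log2 fold change of -0.54, with adjusted p of 0.143 and 0.180. AspRS, for aspartate, was the gene that differed least, with 14.6, 12.2 and 10.5 CPM in delta-POZ libraries and 16.3, 15.5 and 9.35 CPM in Halo-Trl libraries (log2 -0.14, SE 0.22, adjusted p = 0.742); its Halo-Trl library 3 was the lowest of all. Class II thus had 1 of 10 genes called lower, beside 5.20% of all genes, with a median log2 fold change of -0.60.

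GluProRS, the fusion of a class I glutamate and a class II proline enzyme, was kept apart from both classes. It had 98.7, 65.6 and 71.3 CPM in delta-POZ libraries, against 135, 120 and 141 CPM in Halo-Trl libraries. The libraries were separated and the difference was among the largest of the 20 (log2 -0.75, SE 0.26), but the wide spread left it uncalled (adjusted p = 0.103). The genes were also grouped by the make-up of the complex known from mammals, a grouping made after the values were seen. In it 3 of 8 genes of complex enzymes and 2 of 12 others were called lower, beside 5.20% of all genes. The median log2 fold change was -0.60 in both groups.

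**Figure D2:**
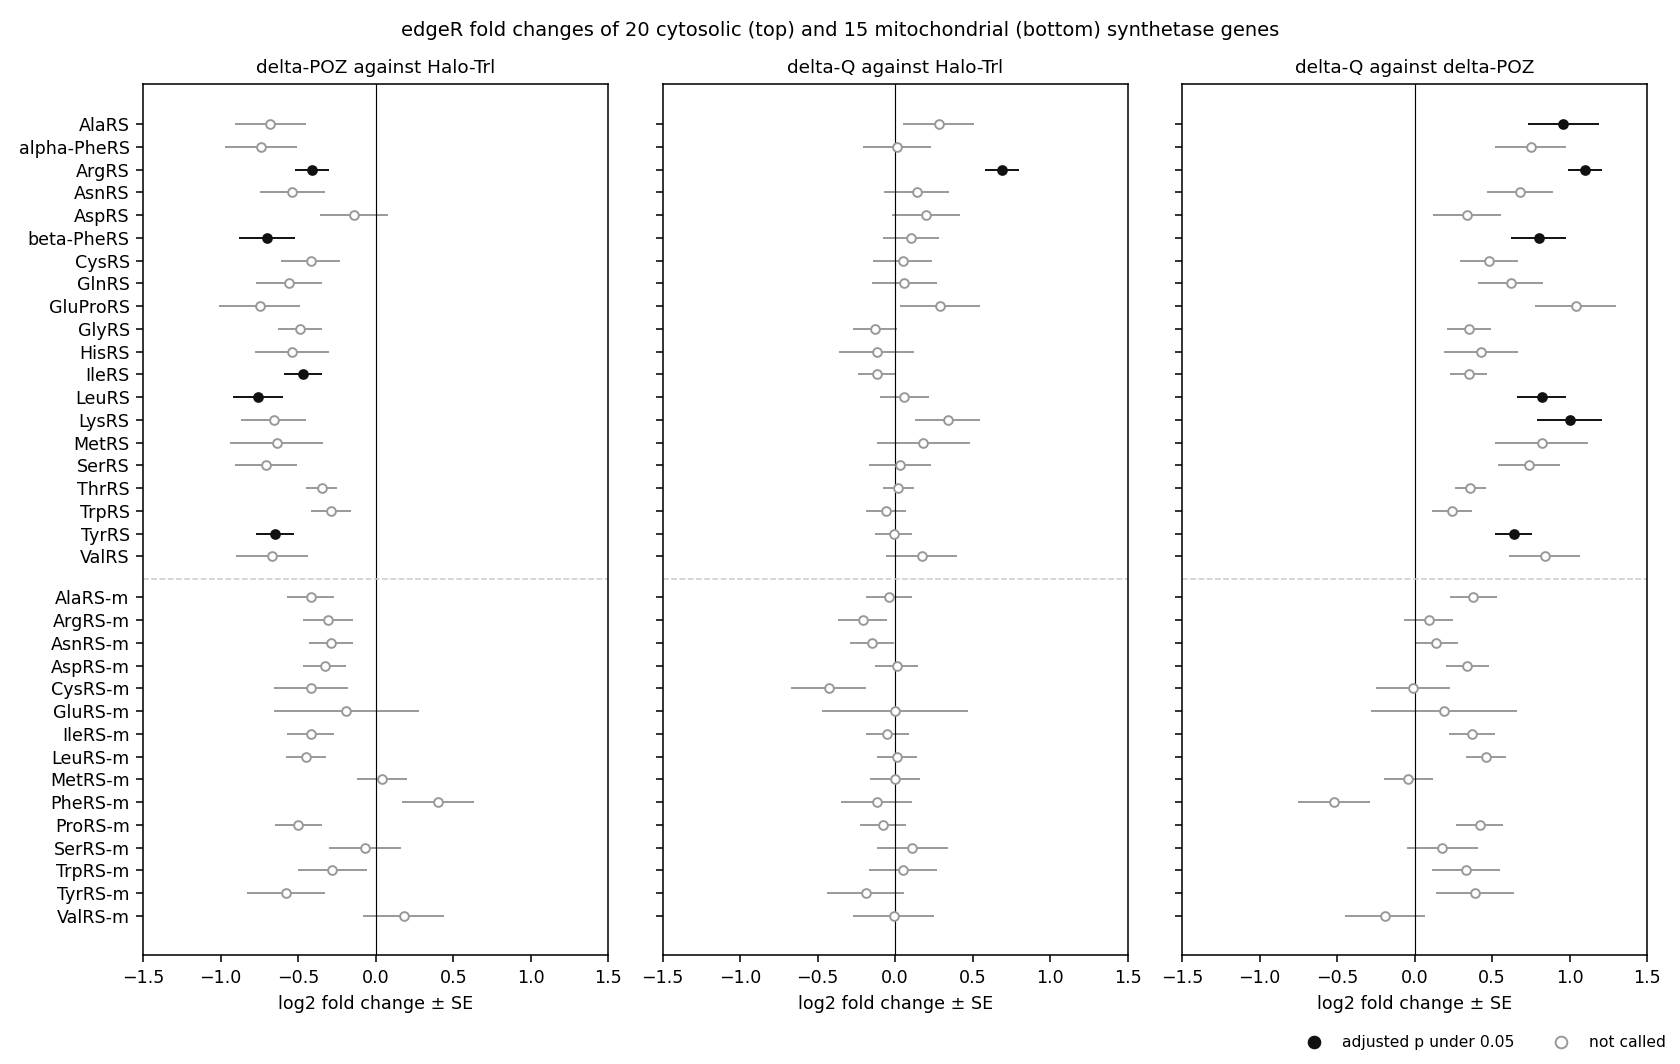
Log2 fold change of each synthetase gene with its standard error (edgeR) in the 3 comparisons, cytosolic genes above the dashed line and mitochondrial genes below. Filled points passed an adjusted p of 0.05. In delta-POZ against Halo-Trl all 20 cytosolic points lie below 0 and 5 are filled, in delta-Q against Halo-Trl ArgRS alone is filled, and in delta-Q against delta-POZ all 20 cytosolic points lie above 0 and 6 are filled.

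Of the 15 genes of mitochondrial enzymes, none was called in either direction by edgeR. At an unadjusted p under 0.05 stood 6 of them, beside 2694 of the 10359 genes. DESeq2, another count model, called 2 lower, LeuRS-m and ProRS-m, beside 7.64% of all genes lower and 8.77% higher with that tool. Of the 15, 12 had a log2 fold change below 0, and the median was -0.31, with a range of -0.58 to 0.40. In 9 of them every delta-POZ library lay below every Halo-Trl library, beside the 16.9% of all genes given above. Without delta-Q library 1 in the fit, 2 genes were called lower, AspRS-m and LeuRS-m.

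The mitochondrial leucine gene LeuRS-m had the smallest p, with 14.1, 14.5 and 16.7 CPM in delta-POZ libraries, against 20.7, 21.0 and 20.3 CPM in Halo-Trl libraries. The libraries were separated, but the log2 fold change of -0.45 (SE 0.13) did not pass the test (adjusted p = 0.0569). ProRS-m, for proline, had 11.9, 13.2 and 10.1 CPM in delta-POZ libraries, against 17.1, 17.2 and 15.5 CPM in Halo-Trl libraries, again without overlap (log2 -0.50, SE 0.15, adjusted p = 0.0587). IleRS-m stood at 19.6, 20.5 and 18.9 CPM in delta-POZ libraries and at 31.1, 21.5 and 26.2 CPM in Halo-Trl libraries (log2 -0.42, SE 0.15, adjusted p = 0.103). Its Halo-Trl libraries were uneven, and library 2 came close to the delta-POZ level. AlaRS-m had 14.2, 18.9 and 18.2 CPM in delta-POZ libraries and 23.0, 22.3 and 23.2 CPM in Halo-Trl libraries (log2 -0.42, SE 0.15, adjusted p = 0.112). TyrRS-m had the lowest log2 fold change of the set at -0.58 (SE 0.25, adjusted p = 0.175), but its Halo-Trl libraries, at 11.3, 6.34 and 9.21 CPM, reached into the range of the delta-POZ libraries, at 4.98, 5.87 and 7.17 CPM.

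The genes that lay above 0 in delta-POZ discs were PheRS-m, ValRS-m and MetRS-m. PheRS-m, the mitochondrial phenylalanine enzyme, a single chain unlike its cytosolic counterpart, had 7.55, 6.52 and 7.38 CPM in delta-POZ libraries, against 4.75, 4.88 and 6.59 CPM in Halo-Trl libraries. The lowest delta-POZ and the highest Halo-Trl library overlapped narrowly (log2 0.40, SE 0.23, adjusted p = 0.319). ValRS-m averaged 6.69 ± 0.203 CPM in delta-POZ discs and 5.92 ± 1.63 CPM in Halo-Trl discs, and MetRS-m averaged 11.3 ± 1.07 CPM in delta-POZ discs and 11.0 ± 0.535 CPM in Halo-Trl discs. Neither difference exceeded the spread between libraries. ArgRS-m had 8.65 ± 0.929 CPM in delta-POZ discs and 10.7 ± 1.06 CPM in Halo-Trl discs, AsnRS-m had 19.9 ± 0.663 CPM in delta-POZ discs and 24.3 ± 1.36 CPM in Halo-Trl discs, and AspRS-m had 59.5 ± 4.39 CPM in delta-POZ discs and 74.5 ± 2.17 CPM in Halo-Trl discs. These 3 were separated without passing the test (adjusted p = 0.277, 0.225 and 0.177). CysRS-m, GluRS-m, SerRS-m and TrpRS-m completed the set with log2 fold changes of -0.42, -0.19, -0.07 and -0.28. GluRS-m had the fewest reads of the members, with 53 in its lowest library.

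Taken amino acid by amino acid, the cytosolic gene had the lower log2 fold change in 15 of 16 pairs with its -m gene (both PheRS subunits were paired with PheRS-m, and GluProRS with GluRS-m and with ProRS-m). The widest gaps were those of the phenylalanine genes, at -0.74 and -0.70 against 0.40, of valine, at -0.67 against 0.18, and of methionine, at -0.64 against 0.04. Tyrosine, at -0.65 against -0.58, and tryptophan, at -0.29 against -0.28, differed little. The cysteine genes, also counted among the 15, were level at -0.42 as rounded. In aspartate the order was turned, at -0.14 for AspRS against -0.33 for AspRS-m. Whether the cytosolic genes as a set differed from the mitochondrial ones was not tested.

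To ask the same of the Q domain, delta-Q discs were compared with Halo-Trl discs, and ArgRS was the synthetase gene that passed the test. It was 1 of 20 cytosolic genes called higher in delta-Q discs, beside 0.396% of all genes, and none was called lower, beside 0.261% of all genes. ArgRS had 75.6, 70.4 and 74.5 CPM in delta-Q libraries, against 39.1, 50.5 and 47.2 CPM in Halo-Trl libraries. The delta-Q libraries were tightly grouped and all far above the others, a separation that 7.36% of all genes showed upwards and 5.74% downwards and no other synthetase gene showed in either direction, and ArgRS rose by 0.69 on the log2 scale (SE 0.11, adjusted p = 0.0249 by edgeR). The size changed little across 14 alternative settings, at 0.59 to 0.77, but the call was lost in 7 of them. Those were the fit with the replicate number as a block, with an adjusted p of 0.0658, and the omission of delta-Q library 1, 2 or 3, with adjusted p of 0.0642, 0.0930 and 0.0868, or of Halo-Trl library 1, 2 or 3, with adjusted p of 0.0705, 0.0710 and 0.115.

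The next smallest p among cytosolic genes belonged to LysRS and AlaRS. LysRS had 55.1, 31.7 and 30.8 CPM in delta-Q libraries and 34.1, 27.4 and 31.7 CPM in Halo-Trl libraries (log2 0.34, SE 0.21, adjusted p = 0.819), and AlaRS had 236, 151 and 127 CPM in delta-Q libraries and 142, 129 and 154 CPM in Halo-Trl libraries (log2 0.28, SE 0.23, adjusted p = 0.902). In both genes delta-Q library 1 stood far above the other delta-Q libraries, which lay within or near the Halo-Trl range; without it the AlaRS value was -0.02. The median cytosolic log2 fold change was 0.06, with a range of -0.13 to 0.69, while the median of all genes was 0.02. Without delta-Q library 1 the cytosolic median was -0.14 and no cytosolic gene was called in either direction, beside 0.183% of all genes lower and 0.339% higher.

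Of the mitochondrial genes, 0 of 15 were called in delta-Q against Halo-Trl by edgeR. With DESeq2 0 were called, beside 0.803% of all genes lower and 1.42% higher with that tool. Beside 810 of the 10359 genes, none of the 15 had an unadjusted p under 0.05. Their median log2 fold change was -0.04, with a range of -0.43 to 0.11. CysRS-m marked the low end, at 5.91, 3.70 and 4.98 CPM in delta-Q libraries and 5.63, 6.13 and 7.89 CPM in Halo-Trl libraries (log2 -0.43, SE 0.24, adjusted p = 0.776). ArgRS-m had 9.20, 8.72 and 9.77 CPM in delta-Q libraries and 11.7, 10.7 and 9.62 CPM in Halo-Trl libraries (log2 -0.21, SE 0.16, adjusted p = 0.881), on the other side of 0 from the cytosolic ArgRS. AsnRS-m had a log2 fold change of -0.15 (SE 0.14, adjusted p = 0.914). In all of these genes the libraries of the genotypes overlapped.

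**Figure D3:**
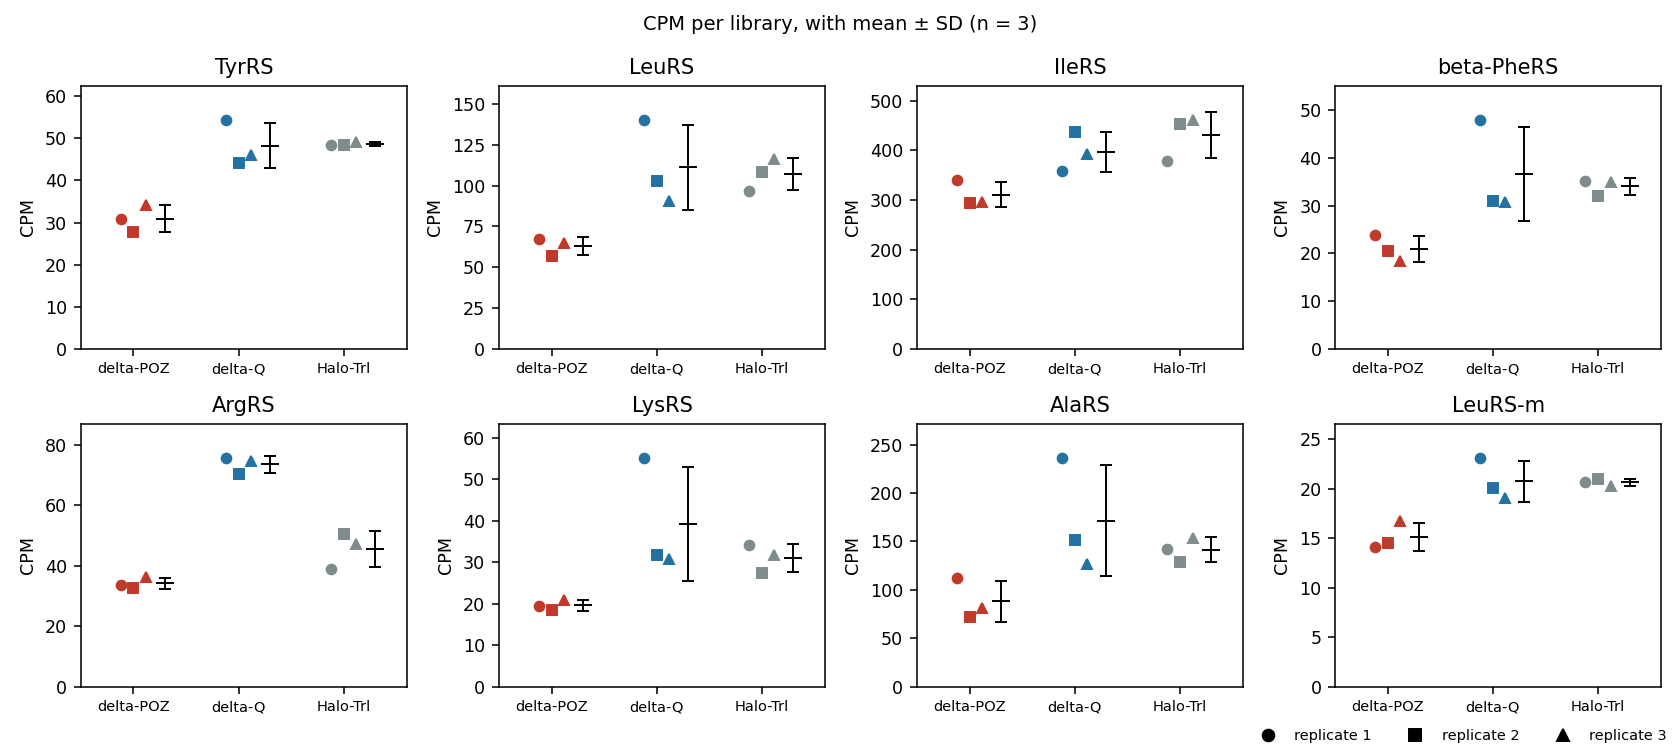
CPM of the 7 synthetase genes called in any comparison and of LeuRS-m in each wing disc library (symbols), with the mean and SD of 3 libraries per genotype (black bars); axes start at 0. TyrRS lies at 27.7 to 34.2 CPM in delta-POZ, against 48.3 to 49.2 CPM in Halo-Trl libraries; ArgRS lies at 70.4 to 75.6 CPM in delta-Q libraries, above all others; and delta-Q library 1 stands apart in LysRS and AlaRS.

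The deletion lines were also set directly against each other. This comparison shares its delta-POZ and delta-Q libraries with those above. In delta-Q against delta-POZ discs, 6 of 20 cytosolic genes were called higher, beside 3.05% of all genes, and 0 were called lower by edgeR and by DESeq2, beside 1.55% of all genes by edgeR and 5.01% by DESeq2. All 20 had a log2 fold change above 0, with a median of 0.71 and a range of 0.24 to 1.10, while the median of all genes was 0.02. In 16 of them every delta-Q library lay above every delta-POZ library, beside 13.3% of all genes. The fat body markers also differed in this contrast, as 4 of 4 had every delta-Q library above every delta-POZ library, although none of the 4 passed the test. In delta-Q libraries 1 to 3 their sum was 371, 629 and 4427 CPM, beside a cytosolic synthetase sum of 2012, 1582 and 1437 CPM. In Halo-Trl libraries 1 to 3 these sums were 2731, 7.74 and 23.0 CPM beside 1498, 1576 and 1716 CPM. In delta-POZ libraries 1 to 3 they were 40.7, 14.7 and 12.5 CPM beside 1210, 968.0 and 1071 CPM. Among the other cell type markers, 1 of 5 for muscle precursors and 1 of 4 for trachea were called lower in delta-Q discs. They were zfh1 (log2 -0.68, adjusted p = 0.0489) and Gasp (log2 -0.66, adjusted p = 0.0277), beside 1.55% of all genes. The other markers of both lists were not called, and the list medians were 0.03 and 0.02. The part of these cells in the result was not tested.

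ArgRS had the largest difference and the smallest p. Its delta-Q level of 73.5 ± 2.73 CPM was more than double the delta-POZ level of 34.2 ± 1.75 CPM, a rise of 115% (log2 1.10, SE 0.11, adjusted p = 7.14e-04) that was called in all 14 alternative settings. LysRS averaged 39.2 ± 13.8 CPM in delta-Q discs and 19.6 ± 1.32 CPM in delta-POZ discs (log2 1.00, SE 0.21, adjusted p = 0.0296). Its call was lost without delta-POZ library 1, 2 or 3 (adjusted p = 0.0789, 0.0817 and 0.0794), and without delta-Q library 1 its log2 fold change was 0.66 (adjusted p = 0.0368). AlaRS averaged 172 ± 57.4 CPM in delta-Q discs and 88.2 ± 21.1 CPM in delta-POZ discs (log2 0.96, SE 0.23, adjusted p = 0.0468). That call was lost without delta-Q library 1 (log2 0.65, adjusted p = 0.125) or 2 (adjusted p = 0.0837) and without delta-POZ library 2 or 3 (0.126 and 0.137).

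LeuRS averaged 111 ± 25.7 CPM in delta-Q discs and 63.0 ± 5.65 CPM in delta-POZ discs (log2 0.82, SE 0.16, adjusted p = 0.0186); its adjusted p was 0.0501 without delta-POZ library 2 and 0.0618 without delta-POZ library 3. Next came beta-PheRS, at 36.6 ± 9.83 CPM in delta-Q discs and 21.0 ± 2.77 CPM in delta-POZ discs (log2 0.80, SE 0.18, adjusted p = 0.0377). Its call held in the absence of delta-Q library 3 and was lost without delta-POZ library 1, 2 or 3 (adjusted p = 0.0541, 0.101 and 0.124) and without delta-Q library 1 or 2 (0.0742 and 0.0526). TyrRS averaged 48.2 ± 5.33 CPM in delta-Q discs and 31.0 ± 3.24 CPM in delta-POZ discs (log2 0.64, SE 0.12, adjusted p = 0.0149), with an adjusted p of 0.0561 without delta-POZ library 2. Fitted to the libraries of the compared genotypes alone, ArgRS kept its call (adjusted p = 0.00347), while those of LysRS, AlaRS, LeuRS, beta-PheRS and TyrRS were lost (0.0704, 0.0978, 0.0515, 0.0944 and 0.0605). The number of cytosolic genes called higher was 4, 4 and 9 without delta-Q libraries 1, 2 and 3, and 4, 1 and 2 without delta-POZ libraries 1, 2 and 3. Over all genes the number called higher went from 316 to 194, 186 and 262, and to 176, 170 and 152, in the same settings. The cytosolic median fell to 0.42 without delta-Q library 1, where 4 genes (ArgRS, LeuRS, LysRS and TyrRS) were called beside 1.78% of all genes.

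GluProRS came next below the threshold, with 161 ± 68.2 CPM in delta-Q discs and 78.5 ± 17.7 CPM in delta-POZ discs (log2 1.04, SE 0.26, adjusted p = 0.0559). The genes whose libraries overlapped were AspRS, CysRS, HisRS and MetRS. The mitochondrial genes had a median log2 fold change of 0.19, with a range of -0.52 to 0.46. None of the 15 was called by edgeR, and 5 stood at an unadjusted p under 0.05, beside 2108 of the 10359 genes. DESeq2 called 1 higher, beside 5.38% of all genes with that tool. LeuRS-m had 20.8 ± 2.06 CPM in delta-Q discs and 15.1 ± 1.37 CPM in delta-POZ discs (log2 0.46, SE 0.13, adjusted p = 0.0828), and ProRS-m had 15.7 ± 1.04 CPM in delta-Q discs and 11.7 ± 1.54 CPM in delta-POZ discs (log2 0.42, SE 0.15, adjusted p = 0.142). Below 0 were PheRS-m, ValRS-m, MetRS-m and CysRS-m, the last 3 at -0.19 to -0.01. PheRS-m had 3.88, 5.73 and 5.32 CPM in delta-Q libraries, all below the 7.55, 6.52 and 7.38 CPM of the delta-POZ libraries as in 10.9% of all genes, yet it did not pass the test (log2 -0.52, SE 0.23, adjusted p = 0.246).

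The level of the cytosolic set also varied between libraries of a genotype. As the median log2 difference from the Halo-Trl mean, the 20 cytosolic genes lay at -0.40, -0.74 and -0.53 in delta-POZ libraries 1 to 3, at 0.44, -0.05 and -0.21 in delta-Q libraries, and at -0.04, -0.06 and 0.08 in Halo-Trl libraries. The 15 mitochondrial genes lay at -0.27, -0.26 and -0.30 in delta-POZ, at -0.08, -0.06 and -0.07 in delta-Q, and at 0.07, -0.07 and 0.01 in Halo-Trl libraries. The delta-POZ libraries were thus lowest for both sets, and within the deletion lines the libraries lay further apart in the cytosolic than in the mitochondrial set.

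**Figure D4:**
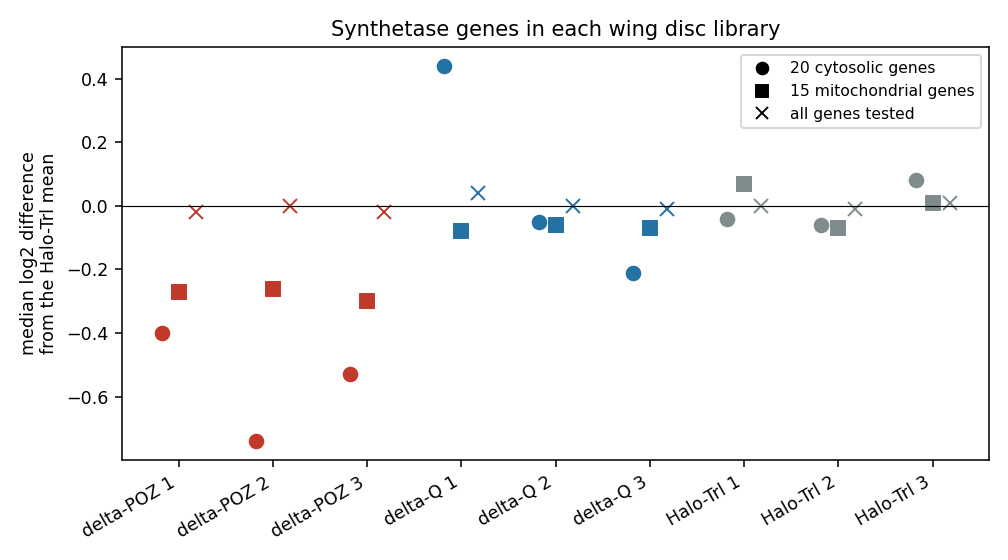
Median log2 difference from the mean of the Halo-Trl libraries, by wing disc library, for the 20 cytosolic synthetase genes (circles), the 15 mitochondrial synthetase genes (squares) and all 10359 genes tested (crosses). The cytosolic genes lie at -0.40 to -0.74 in delta-POZ libraries and range from -0.21 to 0.44 in delta-Q libraries, while the mitochondrial genes are level within each deletion line.

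Delta-Q library 1 was the highest of the 9 libraries for 16 of 20 cytosolic genes and 5 of 15 mitochondrial genes, and for 21.0% of all genes tested. It also stood apart over all genes, with a median absolute log2 deviation from its genotype of 0.309, beside 0.169 to 0.249 in the other libraries. Relative to the mean of delta-Q libraries 2 and 3, cytosolic genes had a median ratio of 1.5, with a range of 0.865 to 2.10, and 17 of 20 were above 1; the median ratio was 1.08 for mitochondrial genes and 1.01 for all genes. MetRS had the ratio of 2.10, at 70.5 CPM in delta-Q library 1 beside 35.1 and 32.2 CPM in libraries 2 and 3. ArgRS, at 1.04, and TyrRS, at 1.20, lay closer to 1. Summed over the 20 genes, cytosolic synthetase transcripts made up 2012, 1582 and 1437 CPM in delta-Q libraries 1 to 3, whose shares of reads from the mitochondrial genome were 15.1%, 23.7% and 31.1%. The part of that share in the result was not tested.

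The order of the genotype means changed with that library. The lowest mean belonged to delta-POZ in 20 of 20 cytosolic and 11 of 15 mitochondrial genes. The highest mean belonged to delta-Q in 15 of 20 cytosolic genes, but without delta-Q library 1 in 3 of 20 (ArgRS, AspRS and LysRS), with Halo-Trl highest in the other 17. In delta-Q discs the median coefficient of variation was 25.8% for cytosolic and 15.5% for mitochondrial genes, against 10.2% and 9.93% in Halo-Trl discs; over all genes it was 21.9% in delta-Q and 15.6% in Halo-Trl discs.

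At the low end, delta-POZ library 2 was the lowest of all libraries for 17 of 20 cytosolic genes and 2 of 15 mitochondrial genes, and for 15.2% of all genes. Its cytosolic sum was 968.0 CPM, beside 1210 and 1071 CPM in delta-POZ libraries 1 and 3 and 1498 to 1716 CPM in Halo-Trl libraries. It was also the library with the highest neuronal markers, elav at 137 CPM and nSyb at 58.1 CPM, where the other delta-POZ libraries had at most 4.88 and 0.435 CPM. The sum of 3 markers of differentiated muscle (Mhc, Mlc1 and wupA) was 32.0 CPM there, beside 1.07 and 2.70 CPM in delta-POZ libraries 1 and 3. The next highest sum was 15.0 CPM, in delta-Q library 2. The part of the neuronal and muscle markers in the result was not tested. Without delta-POZ library 2 the median cytosolic log2 fold change against Halo-Trl was -0.52, and 2 cytosolic genes were called. In delta-POZ discs 2 of 5 blood cell markers, NimC1 and He, were called higher than in Halo-Trl discs, beside 4.93% of all genes. Their log2 fold changes were 3.02 and 2.71. Also called higher were zfh1, 1 of 5 muscle precursor markers (0.75), and Gasp, 1 of 4 tracheal markers (0.60). The other muscle precursor and tracheal markers were not called, and the medians of these lists were 0.11 and 0.10. The part of these cells in the synthetase values was not tested.

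Genes that act with the synthetases were read against the shares of all genes in delta-POZ against Halo-Trl discs, 5.20% called lower and 4.93% called higher. Of the 3 scaffold genes of the multisynthetase complex, AIMP2 was called lower, with 13.2, 13.7 and 16.7 CPM in delta-POZ libraries, against 20.6, 23.0 and 22.9 CPM in Halo-Trl libraries (log2 -0.61, SE 0.14, adjusted p = 0.0257), a call lost in 4 of 15 alternative settings. AIMP1 and AIMP3, with at most 4.75 CPM in any library, had log2 fold changes of -0.40 and -0.67 and were not called. None of 3 other tested genes related to tRNA charging and proofreading (Slimp, GatA and Dtd) was called by edgeR. GatA, a subunit of the amidotransferase that makes mitochondrial glutaminyl-tRNA, had a log2 fold change of -0.41 (adjusted p = 0.160, unadjusted p = 0.0364). It was the gene among them under an unadjusted p of 0.05.

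Of 13 tRNA processing and modification genes, 4 were called lower and none higher, beside 5.20% and 4.93% of all genes. Nsun2, a tRNA methyltransferase, had 18.8, 12.1 and 16.8 CPM in delta-POZ libraries, against 31.0, 40.5 and 48.9 CPM in Halo-Trl libraries (log2 -1.33, SE 0.22, adjusted p = 0.00548). La, which binds the ends of new tRNA precursors, and RNaseZ, which trims them, had log2 fold changes of -0.87 (adjusted p = 0.0217) and -0.59 (adjusted p = 0.0137). Mt2, another tRNA methyltransferase, was low in every library, at 0.333 to 0.580 CPM in delta-POZ and 1.52 to 1.82 CPM in Halo-Trl libraries (log2 -1.81, adjusted p = 0.0324). Nsun2 kept its call in all 15 alternative settings, while La lost it in 4, RNaseZ in 3 and Mt2 in 7, nearly all of them omissions of a delta-POZ or Halo-Trl library.

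Of 10 elongation factor genes, 4 were called lower, beside 5.20% of all genes, and 1 higher, near the 4.93% of all genes. The guanine nucleotide exchange subunits eEF1delta and eEF1beta and their partner eEF1gamma, which recharge the factor that carries charged tRNA to the ribosome, had log2 fold changes of -1.09, -0.33 and -0.61 (adjusted p = 0.0121, 0.0330 and 0.0241), and the mitochondrial translocation factor mEFG1 had one of -0.87 (adjusted p = 0.00471). The carrier itself was split between its paralogs: eEF1alpha2 was called higher (log2 1.25, adjusted p = 0.0358), and the far more counted eEF1alpha1 had a log2 fold change of -0.47 (adjusted p = 0.142). Reads can be shared between closely similar copies such as these, so their split is uncertain. The calls of eEF1beta, eEF1gamma and eEF1alpha2 were lost in 9, 5 and 5 of 15 alternative settings, including the omission of delta-POZ library 2 and of Halo-Trl libraries 1, 2 and 3; eEF1delta lost its call without Halo-Trl library 3 alone.

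In the lists for stress signalling and amino acid synthesis, 2 of 10 and 1 of 12 genes were called, beside 5.20% of all genes lower and 4.93% higher. The gene crc encodes the fly ATF4, the transcription factor of the integrated stress response, which in mammals has several cytosolic synthetase genes among its targets. It was called higher, with 198, 162 and 163 CPM in delta-POZ libraries, against 115, 112 and 112 CPM in Halo-Trl libraries (log2 0.63, SE 0.13, adjusted p = 0.0153), and in delta-Q libraries it had 174, 135 and 127 CPM without passing the test (log2 0.37, adjusted p = 0.438). The ER chaperone gene Hsc70-3 was called lower in delta-POZ discs (log2 -0.49, adjusted p = 0.0159), and the other 8 of 10 genes of the list were not called. Of 12 genes of amino acid and one-carbon synthesis, Shmt, which interconverts serine and glycine, was called lower (log2 -0.76, adjusted p = 0.0197). The calls of crc and Hsc70-3 were each lost in 3 and that of Shmt in 5 of 15 alternative settings, all omissions of a delta-POZ or Halo-Trl library.

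Of 9 amino acid transporter genes, 2 were called lower in delta-POZ discs and none higher, beside 5.20% and 4.93% of all genes, and both calls held in all 15 alternative settings. The transporter gene mnd (minidiscs), named for the small imaginal discs of its mutants, had 5.82, 6.07 and 8.98 CPM in delta-POZ libraries, against 38.0, 43.2 and 42.6 CPM in Halo-Trl libraries (log2 -2.57, SE 0.29, adjusted p = 7.60e-04). In delta-Q libraries mnd stood at 50.1, 45.3 and 22.5 CPM. JhI-21, a related transporter, had 0.681, 1.18 and 0.622 CPM in delta-POZ libraries, against 26.2, 28.5 and 32.2 CPM in Halo-Trl libraries (log2 -5.13, SE 0.32, adjusted p = 3.23e-05). It was also the gene of these pathway lists called in delta-Q against Halo-Trl discs, where 0.261% of all genes were called lower, with 2.74, 3.28 and 1.85 CPM in delta-Q libraries (log2 -3.46, SE 0.30, adjusted p = 4.05e-04).

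Between the deletion lines, the 8 pathway genes called were all higher in delta-Q discs, where 3.05% of all genes were called higher and 1.55% lower. They were Nsun2 (log2 1.07, adjusted p = 0.0256), La (0.85, 0.0391), eEF1delta (1.26, 0.00997), eEF1gamma (0.67, 0.0289), Hsc70-3 (0.52, 0.0207), Shmt (0.94, 0.0132), mnd (2.50, 0.00137) and JhI-21 (1.67, 0.0108). Of these, eEF1delta and mnd kept their call in all 14 alternative settings. AIMP2, at 22.1, 18.6 and 22.7 CPM in delta-Q libraries, had a log2 fold change of 0.54 over delta-POZ without passing the test (adjusted p = 0.0648).

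The authors' deposited table of 1 RNA comparison carries no group names. Its log2 fold changes lay within 0.1 of a DESeq2 refit of delta-POZ against Halo-Trl for all 35 synthetase genes, against 4 of 35 for delta-Q over Halo-Trl and 0 of 35 for delta-Q over delta-POZ. In the authors' deposited table, cytosolic synthetase genes were lower in 13 of 20 cases at an adjusted p under 0.05, beside 7.44% of its genes, and none was higher, beside 8.46%. TyrRS had a log2 fold change of -0.63 (adjusted p = 3.78e-05) and LeuRS one of -0.74 (adjusted p = 1.09e-04) in the authors' deposited table. Its mitochondrial calls were LeuRS-m at -0.43 (adjusted p = 0.0226) and ProRS-m at -0.48 (adjusted p = 0.0312), both lower. Of the 282 gene labels in the authors' loop tables, none was a synthetase gene.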

How the data were processed

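Total RNA of wing discs (3 genotypes, 3 libraries each, 30 discs per library) was sequenced, and the authors deposited raw counts of reads per gene. Per the submitters' processing notes, featureCounts and DESeq2 were used; no source used here gives their versions, the genome build or the strand setting. The authors also deposited a table of 1 unlabelled RNA comparison, with a mean and a statistic (scores), a log2 fold change, a p-value and its adjusted p-value. Contact and CUT&Tag data were not used, apart from gene labels in the loop tables.

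Counts were tested with edgeR 4.0.16 (limma 3.58.1, R 4.3.3): TMM scaling, filterByExpr with its default minimum of 10 reads, and the quasi-likelihood F test, in a joint fit of all 9 libraries that had genotype as its sole factor. Genes were called at a Benjamini-Hochberg adjusted p under 0.05 over all genes. Standard errors were taken from the test as |log2 fold change| over the root of its F value. CPM use the TMM-scaled library size; the log2 differences by library add 0.5 CPM. Depth was 57673928 to 85575887 reads. Levels were not compared between genes, since transcript lengths were not used.

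The members and all gene lists were chosen with earlier results of these data known. Values are given for synthetase genes called in any comparison, for at least 3 per compartment with the smallest p, and for up to 4 called genes per list; 92 of 95 list names were found and 89 were tested. Neighbouring genes come from RefSeq annotation of the assembly Release 6 plus ISO1 MT, which held all 35 members. Overlaps were found from the start and end of each gene there, while the build behind the counts is not given. Where genes overlap, reads could be shared or lost. The genes called have no overlapping neighbour there, whereas AspRS overlaps Nmda1 (a mean of 5149 reads, against 960 for AspRS) and HisRS overlaps Bx (5001 against 1407), as do CysRS, GlnRS, SerRS and most -m genes with other neighbours. Alternatives were other scalings, DESeq2 1.42.0, other filters, fits to only the compared genotypes, a replicate block, other thresholds and leaving out each library of the compared genotypes. In delta-POZ against Halo-Trl, delta-Q library 1 was also left out, a setting chosen after the data were seen.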

Additional observations from a re-analysis of the deposited data

How the results depend on the processing

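In delta-POZ against Halo-Trl, DESeq2 called 1729 genes in place of 1050, and an adjusted p under 0.01 left 357. The 5 cytosolic calls became 13 with DESeq2, 8 with a filter of 1 CPM in 3 libraries, 14 with only the compared genotypes in the fit, 1 at an adjusted p under 0.01 and 3 at 1.5-fold or more. Over all genes the 539 called lower became 805, 595, 648, 191 and 411 in the same settings. The mitochondrial count of 0 became 1 with upper-quartile factors, 2 with DESeq2 and 1 with the CPM filter. Over all genes 528, 805 and 595 were called lower in these settings. In delta-Q against Halo-Trl, the 68 calls became 246 with DESeq2 and 20 at an adjusted p under 0.01, where the cytosolic count went to 0. In delta-Q against delta-POZ, the 477 calls became 1070 with DESeq2, 263 with only the compared genotypes and 167 at an adjusted p under 0.01. The 6 cytosolic calls became 12, 1 and 1 in these settings, and DESeq2 called 1 mitochondrial gene. Over all genes the 316 called higher became 554, 162 and 113.

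Leaving out single libraries gave 411 to 1258 genes, 1 to 15 cytosolic and 0 to 2 mitochondrial genes in delta-POZ against Halo-Trl, with 663, 689, 487 and 411 genes without delta-POZ 2, delta-POZ 3, Halo-Trl 2 and Halo-Trl 3. The upper ends of these ranges came without delta-Q library 1, which is outside that comparison. Such omissions gave 21 to 57 genes and 0 to 0 cytosolic ones in delta-Q against Halo-Trl, and 237 to 364 genes and 1 to 9 cytosolic ones in delta-Q against delta-POZ. Log2 fold changes were recomputed for all 35 members in each comparison, and uncalled genes alone changed sign. In delta-POZ against Halo-Trl they were GluRS-m (-0.52 to 0.36, positive without Halo-Trl 1), SerRS-m (-0.28 to 0.09, positive without Halo-Trl 1), MetRS-m (-0.01 to 0.11, negative without delta-POZ 2) and ValRS-m (-0.03 to 0.34, negative without Halo-Trl 2). In delta-Q against Halo-Trl, where most values lay near 0, 27 of 35 members changed sign in at least 1 setting, 16 of them cytosolic; AlaRS ran at -0.02 to 0.46 (negative without delta-Q 1), MetRS at -0.27 to 0.38, HisRS at -0.48 to 0.10 and GluRS-m at -0.33 to 0.55. In delta-Q against delta-POZ they were CysRS-m (-0.18 to 0.16, positive at 0.02, 0.03 and 0.16 without delta-POZ 1, delta-POZ 3 and delta-Q 2) and MetRS-m (-0.11 to 0.04, positive without delta-Q 1). Omissions also left fewer libraries, and the cause of these shifts was not tested.

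Replicate numbers recur across genotypes. Deviations from the genotype mean correlated across genes at -0.29 to 0.30 in same-numbered and at -0.20 to 0.28 in differently numbered libraries. With 3 libraries per genotype these values cannot show whether same-numbered libraries shared a batch. With the number as a replicate block, delta-POZ against Halo-Trl gave 951 genes and 6 cytosolic calls, delta-Q against Halo-Trl gave 45 and 0, and delta-Q against delta-POZ gave 410 and 7. With 3 libraries per genotype and GluRS-m at 53 reads in its lowest library, small differences of low genes could not be resolved.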
